A study of Mus musculus with 4 samples.

Results

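The loci described here are 581 rows of the deposited gene table that carry the Ensembl biotype TEC and whose span overlaps no protein-coding row of the same table on either strand. They were taken from 2386 TEC rows among 28193 rows in all. The other TEC rows overlap protein-coding rows and are called TEC rows inside genes below, 1408 of them on the strand of the gene and 397 on the opposite strand. TEC is the class in which the annotation keeps clusters of cDNA and EST evidence with polyadenylation features whose gene status awaits experimental proof. Many such models rest on a single cDNA clone. In the nervous system, RNA from outside coding genes includes long noncoding RNAs (lncRNAs), many of which stay in the nucleus, transcripts that run on past the 3′ ends of coding genes, and RNA that starts near promoters and runs the other way.

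fosTRAP-seq reads the RNA that comes down with HA-tagged ribosomes of neurons tagged through Fos activity in a time window. All mice of both groups were male C57BL/6J mice aged 3 to 5 months that carried viral vectors for a Fos-driven, tamoxifen-dependent Cre and for Cre-dependent HA-tagged Rpl22, a ribosomal protein, and all were sleep deprived for 5 h on day 0 with 4-OHT given to fix the tag. On day 7 only the SD group lost sleep again, for a further 5 h, and dissection followed at ZT 5. Each library pooled the CA1 of 5 mice, which gave 2 libraries per group, and the sample labels add a batch number that matches the replicate number. The labels call the source dorsal hippocampus of Fos-Cre RiboTag mice, where the study's methods describe vector-injected mice and dissected CA1. Tagging rests on the Fos promoter of the vector and was done on day 0 in both groups, and vehicle-injected control mice of the study also held some tagged cells, so a part of the tag may be background.

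The libraries held 153511705 to 195910235 counts. Counting error was nevertheless large for many of the 226 loci that missed the count filter, which had a median of 22 and at most 411 counts over the 4 libraries together. All 8 markers of CA1 and other excitatory neurons were present and summed to 6050 to 6660 CPM (counts scaled to a common library size), whereas the 3 dentate granule cell markers summed to 31.5 to 40.4 CPM and the 3 CA3 markers to 29.7 to 36.6 CPM. Interneuron markers summed to 719 to 810 CPM, oligodendrocyte markers to 1400 to 1680 CPM, astrocyte markers to 414 to 463 CPM and microglial markers to 54.8 to 71.9 CPM. The lists hold different genes and numbers of genes, so the sums do not compare amounts of cell types. None of the cell type markers was called by the main fit, and with the batch number as a block 5 excitatory neuron markers, 5 endothelial or mural markers and 1 interneuron marker were lower and 1 oligodendrocyte marker was higher. Of the 8 excitatory neuron markers 6 had fold changes below 0, with a median of -0.32 on the log2 scale. The 8 markers of endothelium and mural cells all had negative fold changes (median log2 -0.65), with summed levels of 78.3 and 97.9 CPM in NSD and 69.9 and 52.8 CPM in SD. In such pools fewer contributing cells and less RNA per cell cannot be told apart.

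The 581 loci were short and nearly all unspliced. Their median length was 2114 bases (155 to 74456 bases), and 555 of the 573 found in the GENCODE vM39 annotation of the same genome build (96.9%) had 1 exon. By name, 499 were Gm models and 76 were RIKEN cDNA clones. They were unevenly spread over the chromosomes: chromosome 5 held 81 and chromosome 1 held 66, whereas chromosome 11, which has 8.12% of the protein-coding rows, held 1. The gap to the nearest protein-coding gene ran from 5 bases to 9052840 bases with a median of 10558 bases. On the strand of that gene, 201 loci lay past its 3′ end and 108 before its 5′ end, and on the opposite strand 175 stood head to head and 97 tail to tail with it. Of the 581 loci, 127 overlapped another row of the table, 87 of them a row on the same strand, and 60 overlap a protein-coding gene as GENCODE vM39 now draws it.

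The ends of these loci are shown for 7 of them, because 2 features of the end are counted below over the loci and other kinds of rows. The sequences were read from GRCm39 along the strand of the locus and cover the last 50 bases of the model and the 20 bases after it. Capitals mark AATAAA, the common polyadenylation signal, in the last 50 bases, and each A in the 20 bases that follow. The first 3 are the lower calls with the smallest p values and the last 4 are the higher calls, in both cases among loci that neither lie past a 3′ end on the strand of the gene nor overlap a coding gene of GENCODE vM39. None of these 3 lower calls has 12 or more A after its end, whereas 5 of the 10 lower calls with the smallest p values do.
Gm38020: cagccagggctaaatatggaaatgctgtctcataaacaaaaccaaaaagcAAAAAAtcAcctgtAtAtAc
Gm37928: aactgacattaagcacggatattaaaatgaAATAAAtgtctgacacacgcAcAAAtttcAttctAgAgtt
Gm48744: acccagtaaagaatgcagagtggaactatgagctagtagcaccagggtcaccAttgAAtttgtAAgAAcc
Gm21955: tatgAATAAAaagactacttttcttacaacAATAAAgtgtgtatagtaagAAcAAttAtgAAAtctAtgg
Gm37593: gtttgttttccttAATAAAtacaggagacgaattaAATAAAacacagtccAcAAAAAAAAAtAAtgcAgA
Gm37266: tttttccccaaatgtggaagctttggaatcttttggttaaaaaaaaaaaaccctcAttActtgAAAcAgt
Gm37176: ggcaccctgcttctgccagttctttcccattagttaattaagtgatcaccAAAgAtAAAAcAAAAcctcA

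The windows lie at chrX:102620012-102620081 (Gm38020, minus strand), chr3:118328613-118328682 (Gm37928, plus), chr10:9099695-9099764 (Gm48744, minus), chr4:42719844-42719913 (Gm21955, plus), chr17:52153093-52153162 (Gm37593, plus), chr17:52159504-52159573 (Gm37266, plus) and chr17:52170196-52170265 (Gm37176, plus). Gm37593 had both an AATAAA and 14 A of 20, so the 2 features were not exclusive. An oligo-dT primer can start on a genomic A run when cDNA is cloned, and AATAAA marks many true transcript ends.

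Counted over all 581 loci, 191 (32.9%) held AATAAA in the last 50 bases and 145 (25%) had at least 12 A in the next 20 bases, a threshold set after the values were seen. The protein-coding rows held AATAAA in 62.6% of 16973 cases and such an A run in 3.73%. The lncRNA rows outside protein-coding genes had 40.1% and 11%, and the TEC rows inside genes on the same strand had 13.8% and 64.7%. The reverse complement, TTTATT, searched on the same strand as a control, was found in 5.68% of the loci and 7.32% of the protein-coding rows. The TEC rows inside genes on the opposite strand, with 35.0% and 17.6%, were the class nearest to the loci in both features. The differences between these shares were not tested. Their median GC content was 43.5% against 46.0% in protein-coding rows, measured over the whole span, introns included.

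After SD, more of the loci fell than rose. Of the 581 loci, 355 had more than 5 counts in every library and were tested, and of these 34 were called lower and 5 higher in SD (edgeR quasi-likelihood test fitted to all 22338 rows that passed, adjusted p under 0.05 and fold change over 1.2). This was 9.58% and 1.41% of the tested loci, beside 2.33% and 0.770% of all tested rows. At an unadjusted p under 0.05 (edgeR), 97 loci were lower and 16 higher, beside 2732 and 1532 of all 22338 tested rows. Fold changes were below 0 for 235 loci and above 0 for 120. The median was -0.38 on the log2 scale (quartiles -1.23 and 0.15), beside -0.02 over all tested rows. In 155 loci (43.7%, beside 27.5% of all tested rows) the 2 SD values were under each NSD value, and in 53 (14.9%, beside 22.0%) they were over each. All 39 called loci were among those without overlap between the groups, which a call by this fit favours, so it adds no support.

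With the batch number as a block, the same fit called 72 loci lower and 12 higher, beside 8.47% and 2.99% of all tested rows, and the 39 calls were all kept. DESeq2 called 58 lower and 9 higher, beside 5.80% and 3.0% of all rows, and shared 38 of the 39 calls. The count filter decided whether the edgeR fit called anything: with edgeR's filterByExpr or a mean count over 5 the fit called 0 of 428 and 0 of 480 loci, with lowest adjusted p values of 0.0628 and 0.0595, although 101 and 99 loci were lower and 18 and 18 higher at an unadjusted p under 0.05 and the same fold. With no count filter it called 4 lower and 2 higher. The lower calls depended on 1 library. Without NSD replicate 1 the fit called 2 loci lower and 4 higher and the median was -0.19, and without SD replicate 1 it called 72 lower and 4 higher.

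The medians of other classes of rows lay on either side of that of the loci. TEC rows inside genes on the same strand had a median of -1.78, with 249 of 1033 tested rows called lower and 1 higher, and those on the opposite strand a median of -0.90, with 24 of 275 lower and 1 higher. The lncRNA rows outside protein-coding genes had a median of -0.21, with 31 of 1042 lower and 4 higher, and protein-coding rows had a median of 0.02, with 84 of 15551 lower and 148 higher. With the batch block the counts were 710 lower and 2 higher, 93 and 3, 90 and 16, and 512 and 587 in these 4 classes, in the same order. Among 15 tested RNAs on a list of nuclear long noncoding RNAs, 7 were called lower and none higher, with a median of -0.90. The list was written with earlier results of these data known. Snhg11 on it is a protein-coding row in this table, and location in the cell was not measured. The 15 RNAs summed to 7020 and 4840 CPM in NSD against 3950 and 3060 CPM in SD. NSD replicate 1 had the highest summed level of these RNAs and was also the highest library for 177 of the 355 tested loci and 28 of the 34 lower calls. Each lower call has its highest value in an NSD library through the call itself, and the same share over all rows is not given here. The part of nuclear RNA in the fall of the loci was not tested.

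**Figure D1:**
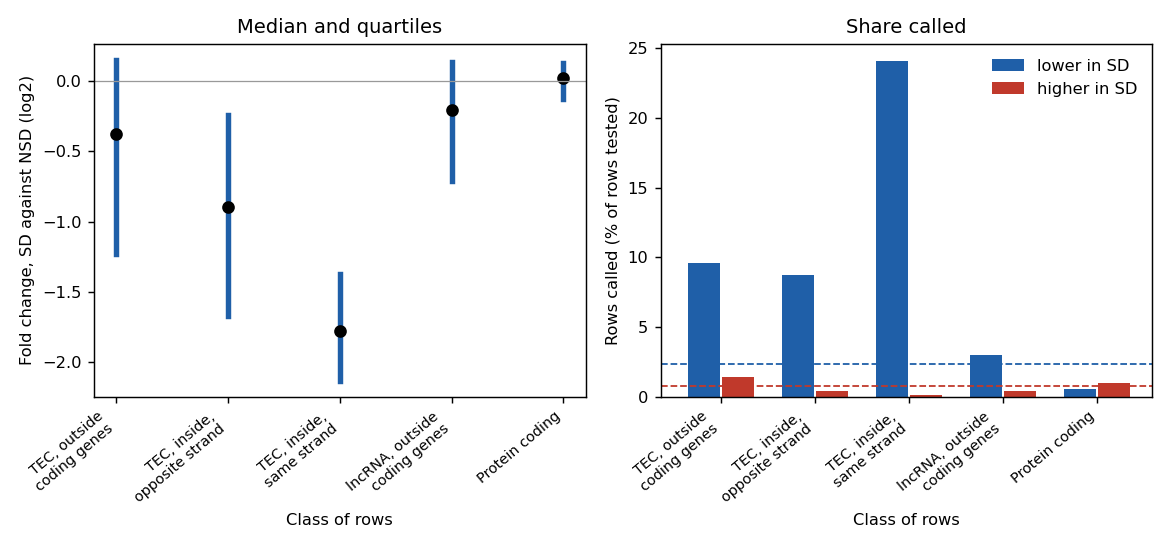
Fold change of SD against NSD for 5 classes of rows. The left panel gives the median (point) and quartiles (bar) on the log2 scale. The right panel gives the percent of tested rows called lower (blue) or higher (red), with dashed lines at 2.33% and 0.770%, the shares over all tested rows. TEC loci outside protein-coding genes had a median of -0.38 and 9.58% called lower, between the TEC rows inside genes on the same strand (-1.78) and the protein-coding rows (0.02).

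Distance from coding genes went with the size of the fall. Of the 91 tested loci more than 50 kb from any protein-coding row, 23 (25.3%) were called lower and 0 higher by edgeR (52 and 0 at an unadjusted p under 0.05, 40 and 0 by DESeq2), 72 had fold changes below 0, and the median was -1.31. Gaps are to rows of the table, and some of these loci, such as the lower calls Gm49677 and Gm9930, overlap a coding gene of GENCODE vM39. Of the 110 loci at 5 to 50 kb, 9 were lower and 5 higher, with a median of -0.33. Of the 82 loci at 1 to 5 kb 1 was lower and none higher (median -0.23), and of the 72 loci within 1 kb 1 was lower and none higher (median -0.17). With the batch block, 46 loci over 50 kb were lower and 0 higher, 18 at 5 to 50 kb were lower and 8 higher, 5 at 1 to 5 kb were lower and 4 higher, and 3 within 1 kb were lower and 0 higher. Without NSD replicate 1 no locus over 50 kb was called, but their median was still -1.0, against -0.05 within 1 kb. Across the 355 loci the Spearman correlation of fold change with the gap was -0.31, given as a description since loci share libraries and neighbours.

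The medians of the nearest protein-coding genes showed no such order. The 296 distinct neighbours of the tested loci included 284 that were tested themselves, with a median of 0.02. Of these, 4 were called lower and 6 higher, beside 0.54% and 0.952% of all tested protein-coding rows. By distance, 0 were lower and 1 higher within 1 kb, 0 and 4 at 1 to 5 kb, 2 and 1 at 5 to 50 kb, and 2 and 0 over 50 kb. For the loci over 50 kb away the neighbours' median was 0.01. Over 340 pairs the Spearman correlation between a locus and its neighbour was 0.16.

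**Figure D2:**
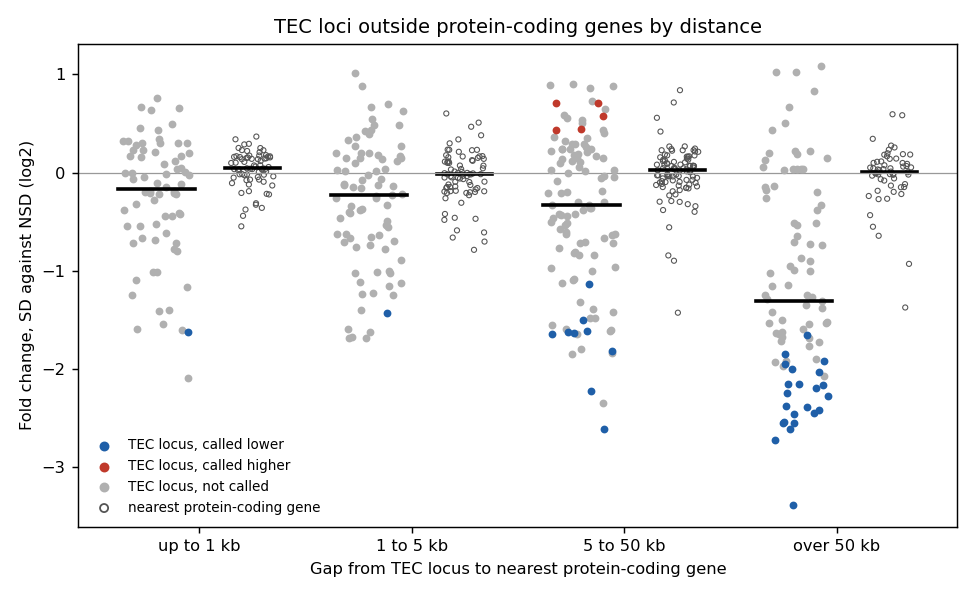
Log2 fold change of each tested TEC locus (filled points) and of its nearest protein-coding gene (open points) in 4 classes of distance. Blue and red mark loci called lower and higher, and black lines are medians. The medians of the loci run from -0.17 within 1 kb to -1.31 over 50 kb, while those of the neighbouring genes stay near 0.

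Orientation made a smaller difference. Loci past the 3′ end of a gene on its strand had a median of -0.18 (137 tested, 10 lower, 1 higher) and head-to-head loci one of -0.26 (100 tested, 9 lower, 3 higher). Loci before the 5′ end on the same strand had -0.72 (58 tested, 8 lower, 1 higher) and tail-to-tail loci -0.68 (60 tested, 7 lower, 0 higher). Within 5 kb past a 3′ end on the same strand, 60 loci with a tested neighbour had a median of 0.01 with 0 called by edgeR, 2 lower and 3 higher with the block, and a Spearman correlation with the gene of -0.10. Of all 61 tested loci in that position, 6 were lower and 5 higher at an unadjusted p under 0.05 (edgeR), beside 2732 and 1532 of all 22338 tested rows. DESeq2 called 1 of the 61 lower and 2 higher. More than 50 kb past a 3′ end, 30 such loci had a median of -1.30 with 8 called. The difference between orientations was not tested.

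The loci nearest to a gene in each orientation, named for their position alone, had a median level of 0.353 CPM, beside 0.461 CPM over all tested loci. By edgeR or DESeq2 0 of the 8 were called, and 0 reached an unadjusted p under 0.05 (edgeR), as 4264 of all 22338 tested rows did. The largest level per kilobase among them was 1.02 CPM, in Gm42568, 153 bases tail to tail with Rarres1. It had 1.59 and 1.61 CPM in NSD and 2.24 and 2.08 CPM in SD, both SD libraries being higher (log2 0.44, adjusted p = 0.335, edgeR). 9330161L09Rik, 5 bases past the 3′ end of the helicase gene Ddx24, had 1.24 and 0.847 CPM in NSD and 1.13 and 0.666 CPM in SD, and the groups overlapped. Gm49167, 34 bases before Cep83, a gene of the centriole, had 1.16 and 0.814 CPM in NSD and 0.560 and 0.595 CPM in SD (log2 -0.78, adjusted p = 0.265, edgeR). The others were Gm43820 beside Spry1, Gm45453 beside Mrps31, 1700001G17Rik beside Prim2, 9430081H08Rik beside Hyou1 and Gm49188 beside Rida, the last 3 of which overlap those genes as GENCODE vM39 draws them, with fold changes of -0.72 to 0.30 and adjusted p values of 0.613 to 0.982 (edgeR).

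All 5 higher calls were among the 10 loci with the highest counts, not scaled by length. Of these 10 loci, 8 had higher values in each SD library than in either NSD library, while the groups overlapped for 9330121K16Rik and Gm44509, whose fold changes turned sign with a library left out. Together they made up 0.0239% and 0.0237% of all NSD counts and 0.0321% and 0.0283% of all SD counts, a ratio of 1.27. In the fifth of tested loci with the highest mean CPM (71 loci), 16 were called lower and 5 higher, and in the other 284 loci 18 were lower and 0 higher (74 and 2 at an unadjusted p under 0.05, 38 and 0 by DESeq2).

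**Figure D3:**
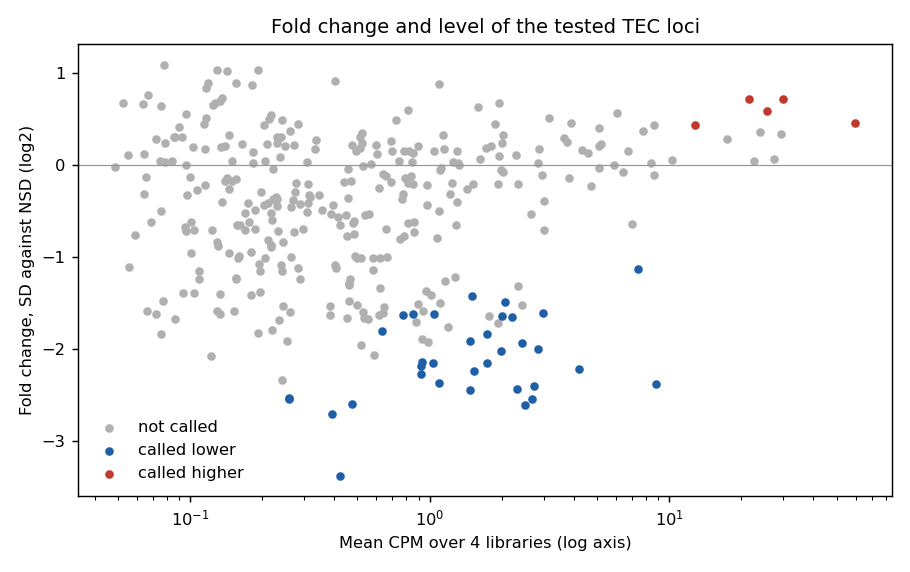
Log2 fold change of the 355 tested TEC loci against their mean CPM on a log axis. Blue points were called lower and red points higher. The 5 higher calls all lie at 12.8 CPM or more, and the 34 lower calls have mean levels of at most 8.77 CPM.

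Gm21955 (ENSMUSG00000102504, chr4:42714926-42719893, plus strand) had the highest CPM of the loci, or 12.1 CPM per kilobase. Its level was 48.9 and 52.4 CPM in NSD and 69.8 and 68.4 CPM in SD, both SD libraries being above both NSD libraries (log2 0.45 ± 0.07 SE, adjusted p = 0.0345, edgeR). Its nearest row, 15651 bases further along the same strand, is 4930578G10Rik, a coding row here that GENCODE vM39 lists as a lncRNA with an exon over Gm21955. That row stayed between 0.105 and 0.286 CPM.

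A run of 3 loci head to head with Satb1 rose together. Satb1 encodes a nuclear protein that organises chromatin and is expressed in cortical and hippocampal neurons. The loci lie on the plus strand of chromosome 17 and start 9570, 16948 and 25876 bases from the 5′ end of Satb1, which is on the minus strand, and no 2 of them overlap. Gm37593 (ENSMUSG00000103358, chr17:52149889-52153142) had 24.5 and 21.1 CPM in NSD and 40.7 and 33.7 CPM in SD (log2 0.71 ± 0.11 SE, adjusted p = 0.0355, edgeR). Gm37266 (ENSMUSG00000102600, chr17:52157267-52159553) had 17.7 and 15.0 CPM in NSD and 30.2 and 23.5 CPM in SD (log2 0.71 ± 0.13 SE, adjusted p = 0.0396, edgeR). Gm37176 (ENSMUSG00000103378, chr17:52166195-52170245) had 21.5 and 19.5 CPM in NSD and 34.2 and 27.1 CPM in SD (log2 0.58 ± 0.12 SE, adjusted p = 0.0416, edgeR). In all 3 the SD libraries were above both NSD libraries, and the blocked fit gave adjusted p values of 2.3e-05, 5e-05 and 0.000247. Without NSD replicate 2, Gm37266 and Gm37176 missed the threshold (adjusted p = 0.0594 and 0.0715, edgeR), and with scaling from protein-coding rows Gm37176 did (adjusted p = 0.0515). Satb1 itself had 239 and 231 CPM in NSD and 278 and 273 CPM in SD, also without overlap, but was not called (log2 0.23, adjusted p = 0.133, and 0.0309 with the block at a fold change under 1.2). Per kilobase, the levels of the 3 loci were 9.22, 9.44 and 6.31 CPM.

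Gm42547 (ENSMUSG00000106990, chr6:28211007-28214804, minus strand) lies 25121 bases past the 3′ end of the zinc finger gene Zfp800 on its strand. It had 11.1 and 10.6 CPM in NSD and 15.0 and 14.4 CPM in SD (log2 0.43 ± 0.09 SE, adjusted p = 0.0491, edgeR). This call was the least stable of the 5: it was lost without NSD replicate 1, NSD replicate 2 or SD replicate 1 (adjusted p = 0.0686, 0.089 and 0.0952) and with scaling from protein-coding rows (0.0616). Zfp800 had 14.4 and 14.5 CPM in NSD and 15.9 and 16.3 CPM in SD and was not called.

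The other 4 of the 8 loci of highest mean CPM lay past the 3′ end of their nearest coding gene on its strand, a position that 201 of all 581 loci had. Gm16485 is 3179 bases past Pgr, the progesterone receptor gene, on its strand. It had 26.2 and 25.4 CPM in NSD and 34.3 and 30.9 CPM in SD (log2 0.34, adjusted p = 0.0648, and 0.00516 with the block, edgeR), while Pgr, which was called higher, had 50.6 and 50.9 CPM in NSD and 64.1 and 64.4 CPM in SD (log2 0.34, adjusted p = 0.0397). Gm47155 is 5653 bases past Homer1, which encodes a postsynaptic scaffold protein and gives a short activity-induced isoform. It had 20.4 and 21.7 CPM in NSD and 27.5 and 26.3 CPM in SD (log2 0.35, adjusted p = 0.0532, and 0.00572 with the block, edgeR), and Homer1 had 185 and 220 CPM in NSD and 260 and 280 CPM in SD (log2 0.42, adjusted p = 0.061, and 0.00115 with the block). In these pairs both rows were higher in both SD libraries.

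The remaining 2 of these loci were not called by edgeR, with or without the block, or by DESeq2. 9330121K16Rik, 12377 bases past Gpm6a, a neuronal membrane glycoprotein gene, had 26.9 and 27.0 CPM in NSD and 30.1 and 25.8 CPM in SD (log2 0.06, adjusted p = 0.821, edgeR). Gm44509, 2724 bases past the magnesium transporter gene Nipa1, had 21.0 and 23.3 CPM in NSD and 22.1 and 23.5 CPM in SD (log2 0.04, adjusted p = 0.867, edgeR). The groups overlapped for both. Gm44509 had the highest level per kilobase of the 581 loci, 17 CPM, where the median of the tested loci was 0.237 CPM per kilobase.

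The 10 lower calls with the smallest p values had fold changes of -3.38 to -1.14 on the log2 scale. All had both SD libraries below both NSD libraries, which their choice by p favours. Gm48744 (ENSMUSG00000112543, chr10:9099715-9100495, minus strand), 337900 bases before the signalling adaptor gene Sash1, fell furthest. It had 0.929 and 0.611 CPM in NSD and 0.0941 and 0.0529 CPM in SD (log2 -3.38 ± 0.52 SE, adjusted p = 0.0345, edgeR), which came from 17 and 10 counts in the SD libraries. Sash1 had 200 and 199 CPM in NSD and 198 and 199 CPM in SD. Gm48751, 135733 bases past the 3′ end of the Samd5 row on the same chromosome, had 5.73 and 3.36 CPM in NSD and 1.39 and 0.878 CPM in SD (log2 -2.0 ± 0.32 SE, adjusted p = 0.036, edgeR), while Samd5 had 76.0 to 83.3 CPM with no call. In GENCODE vM39 Samd5 extends closer to Gm48751, since it overlaps Gm9930 there.

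Gm38020 (ENSMUSG00000103697, chrX:102620032-102624707, minus strand) overlaps an exon of Ftx, a lncRNA of the X inactivation centre, and is not listed by GENCODE vM39. It had 11.8 and 8.65 CPM in NSD and 4.94 and 4.36 CPM in SD (log2 -1.14 ± 0.17 SE, adjusted p = 0.0328, edgeR). Ftx fell with it, from 19.7 and 12.0 CPM to 8.62 and 6.41 CPM (log2 -1.08, adjusted p = 0.0476). Gm37928 (ENSMUSG00000104362, chr3:118324532-118328662, plus strand), 27115 bases before Dpyd, the gene of the enzyme that breaks down pyrimidines, had 3.39 and 2.72 CPM in NSD and 1.11 and 1.05 CPM in SD (log2 -1.50 ± 0.23 SE, adjusted p = 0.0345, edgeR). Dpyd had 3.44 to 4.05 CPM and was not called. GENCODE vM39 does not list Gm37928 and draws an exon of the lncRNA Gm26871 over it, and the Gm26871 row of the table, which does not reach the locus there, was called lower, with 4.37 and 2.74 CPM in NSD and 1.41 and 0.888 CPM in SD (log2 -1.63, adjusted p = 0.0397, edgeR).

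Gm49677 (ENSMUSG00000116867, chr16:75192486-75196162, minus strand) had the smallest p value. It had 3.20 and 1.80 CPM in NSD and 0.509 and 0.402 CPM in SD (log2 -2.46 ± 0.35 SE, adjusted p = 0.0328, edgeR). It stands 193569 bases from Rbm11 in the table, but overlaps the axon guidance receptor gene Robo2 as GENCODE vM39 draws it. Gm43176, 7629 bases past the helicase gene Dhx15, had 0.875 and 0.751 CPM in NSD and 0.166 and 0.100 CPM in SD (log2 -2.61 ± 0.45 SE, adjusted p = 0.0374, edgeR), where Dhx15 had 68.0 to 75 CPM. Gm37334, 31978 bases past Cd34, a gene of vascular and blood progenitor cells, had 4.90 and 4.05 CPM in NSD and 1.84 and 1.08 CPM in SD (log2 -1.62 ± 0.27 SE, adjusted p = 0.0368, edgeR). Cd34 was called lower as well, with 25.8 and 27.5 CPM in NSD and 17.9 and 18.4 CPM in SD, as was the lncRNA row over Gm37334, A330023F24Rik (log2 -1.28, adjusted p = 0.0385). Without NSD replicate 1, 8 of the 10 lower calls were lost, with adjusted p values of 0.0577 to 0.0881 (edgeR), and only Gm38020 and A230103L15Rik kept theirs. Without NSD replicate 2, Gm37472 and Gm43176 lost theirs (adjusted p = 0.0584 and 0.0535, edgeR).

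**Figure D4:**
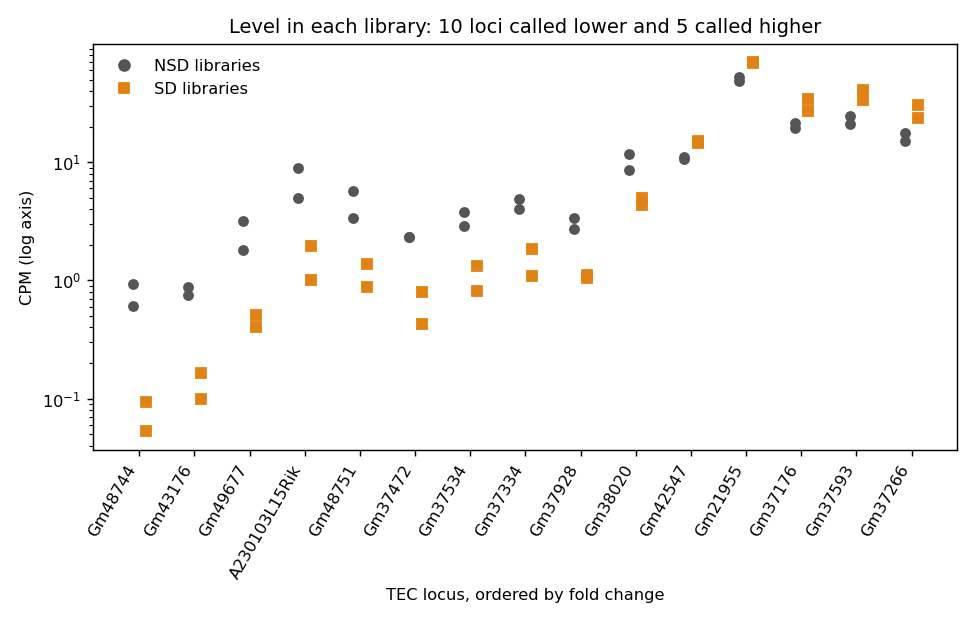
Level of 15 TEC loci in each library, in CPM on a log axis: the 10 lower calls with the smallest p values and the 5 higher calls, ordered by fold change. Grey circles are the 2 NSD libraries and orange squares the 2 SD libraries. In each of the 15 loci the groups do not overlap, which the choice of called loci favours. Values were 10.6 to 69.8 CPM for the higher calls and 0.0529 to 11.8 CPM for the lower calls.

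Lower loci came in runs, described here after their values were seen. All 6 tested loci between Ppargc1a and Dhx15 on chromosome 5 were called lower, and for 5 of them Dhx15 was the nearest coding gene. Gm42616 had 6.11 and 3.11 CPM in NSD and 1.22 and 0.513 CPM in SD (log2 -2.41), Gm43175 had 6.27 and 2.84 CPM in NSD and 1.16 and 0.397 CPM in SD (log2 -2.55), and Gm43606, Gm42617 and Gm43174 fell by 2.61, 2.38 and 2.16. Gm43180, on the far side of Dhx15 and head to head with it, had 0.0844 and 0.108 CPM in NSD and 0.183 and 0.0793 CPM in SD, with overlap. A different set lay near Pcdh10, a protocadherin gene, where 4 tested loci had fold changes of -0.19 to 0.29 and none was called. Of the 355 tested loci, 95 shared their nearest gene with another, so the loci of a run are not independent.

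The largest run lay in Mir99ahg, a lncRNA that is the host of microRNA genes. All 10 tested loci that overlap its row had negative fold changes, from -2.54 to -1.16, with 2 called lower and 8 with the block, and Mir99ahg itself fell (log2 -1.50, adjusted p = 0.0386, edgeR). In Gm4258 all 5 loci had lower levels in both SD libraries, with fold changes of -1.85 to -1.50, 2 of them called and 5 with the block. Gm37534, one of them, had 3.82 and 2.90 CPM in NSD and 1.32 and 0.814 CPM in SD (log2 -1.66 ± 0.29 SE, adjusted p = 0.0374, edgeR). Their nearest coding gene, Ptprc, is the CD45 gene of immune cells, lies 108217 bases or more away and was not called (log2 -0.43, adjusted p = 0.57).

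Other lower loci lay in lncRNA rows that had smaller fold changes, called or not. Snhg14 is the long host transcript of small nucleolar RNAs that runs antisense to the imprinted gene Ube3a. Its row had 133 and 101 CPM in NSD and 129 and 109 CPM in SD (log2 0.03, adjusted p = 0.942, edgeR). A230103L15Rik, within an intron of it and 15781 bases past the 3′ end of Ube3a, had 8.90 and 4.95 CPM in NSD and 1.97 and 1.00 CPM in SD (log2 -2.22 ± 0.36 SE, adjusted p = 0.0363, edgeR). Gm44829, on the opposite strand, and Gm44831 in the same span had fold changes of -1.32 and -1.64 (adjusted p = 0.0665 and 0.0936), both called with the block (0.000597 and 0.000506). Sox2ot, the transcript that overlaps Sox2, had a fold change of -0.20 (adjusted p = 0.48), and its loci Gm42692 and Gm42693 had -1.43 and -1.79 (adjusted p = 0.0399 and 0.106, edgeR). Mir9-3hg fell by 0.51 (adjusted p = 0.0385) and its 2 loci, A330074H02Rik and Gm37608, by 1.63 and 2.24 (adjusted p = 0.0426 and 0.0429). Dleu2, the host of a microRNA cluster, had a fold change of -1.12 (adjusted p = 0.0562, and called lower with the block at 0.000703, edgeR). Gm37472, a locus in its span, had one of -1.92 ± 0.33 SE, from 2.32 and 2.34 CPM in NSD to 0.802 and 0.428 CPM in SD (adjusted p = 0.0374, edgeR). GENCODE vM39 does not list Gm37472 and draws an exon of Dleu2 over it. The difference between a locus and the row over it was not tested, and reads compatible with both rows were split by the authors' model.

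**Figure D5:**
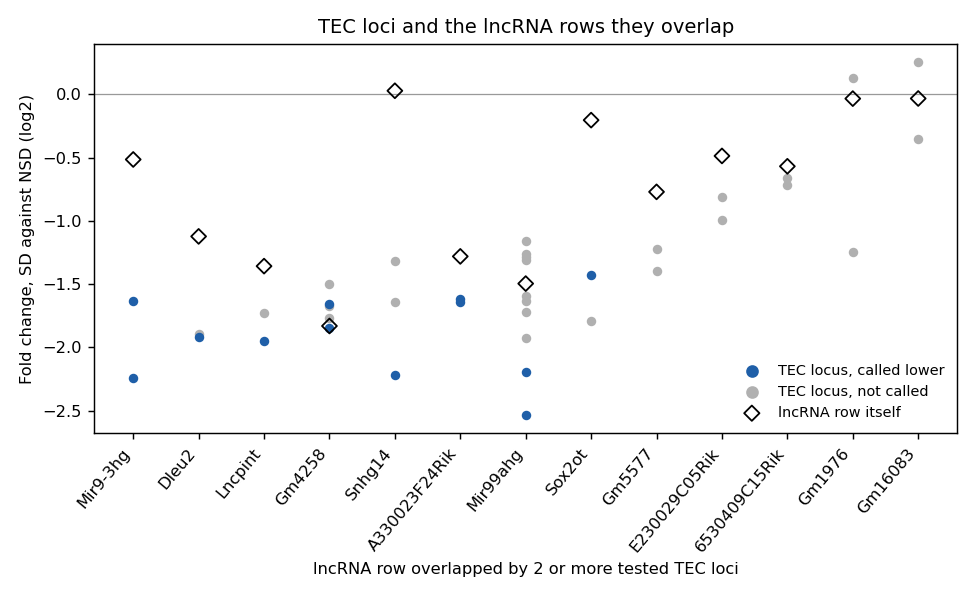
Log2 fold change of tested TEC loci (points, blue where called lower) and of the lncRNA row they overlap (open diamonds), for each lncRNA row with at least 2 tested loci, ordered by the loci's median. The loci of Snhg14 and Sox2ot lie at -1.32 or below, under diamonds at 0.03 and -0.20, whereas those of Gm4258 and Mir99ahg lie around their diamonds at -1.83 and -1.50.

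Over all tested loci, 65 overlapped another row on the same strand and had a median of -1.50, with 17 called lower and 0 higher. The 27 that overlapped rows on the opposite strand alone had a median of -0.64 with 0 called by edgeR (7 lower and 1 higher at an unadjusted p under 0.05), 7 lower with the block and 5 lower by DESeq2. The 263 that overlapped no other row had a median of -0.20, with 17 lower and 5 higher. Within these 263 the distance in the table still separated the loci: 49 lay over 50 kb from a protein-coding row with 13 lower, 0 higher and a median of -0.73, and 214 lay nearer with 4 lower, 5 higher and a median of -0.13. Judged by GENCODE vM39, which holds more lncRNAs, 62 loci that overlapped a lncRNA on their strand but none of its exons had a median of -1.07, 83 over lncRNA exons one of -0.66 and 210 in neither one of -0.19. The 42 tested loci that overlap a GENCODE vM39 coding gene had a median of -0.48, with 5 lower and 0 higher.

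The sequence at the end also went with the fold change. The 90 tested loci with at least 12 A in the 20 bases after the end had a median of -1.14, with 20 called lower and 2 higher, and the other 265 had a median of -0.21, with 14 lower and 3 higher. Loci with AATAAA in the last 50 bases had a median of -0.18 (128 tested, 7 lower, 2 higher) and those without it -0.53 (227 tested, 27 lower, 3 higher). Over 50 kb from coding genes, 35 loci with such an A run had a median of -1.72 with 14 lower and 0 higher, and 56 without had -0.81 with 9 lower and 0 higher. Within 50 kb the medians were -0.66 (55 loci, 6 lower, 2 higher) and -0.15 (209 loci, 5 lower, 3 higher). The Spearman correlation of fold change with the A count was -0.25, with length -0.17 and with GC content 0.16 over the 355 loci, as a description.

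Of the 355 tested loci, 5 had as nearest gene, within 50 kb, 1 of 91 listed genes, which comprise 46 immediate early genes and 55 genes named in the study, some on both lists. Of these 5 loci, 0 were called in either direction by edgeR (3 at an unadjusted p under 0.05), with 1 lower and 1 higher with the block and 1 higher by DESeq2. Gm47155 by Homer1 was the one above 0. ENSMUSG00000118364, 1040 bases before Npas4, a neuronal activity-induced transcription factor gene, had 0.784 and 0.433 CPM in NSD and 0.443 and 0.280 CPM in SD (log2 -0.75, adjusted p = 0.445, edgeR), with overlap between the groups. Npas4 itself had 5.57 and 4.68 CPM in NSD and 3.72 and 3.73 CPM in SD (log2 -0.46, adjusted p = 0.16, and called lower with the block at 0.049). Gm10463, 2629 bases head to head with Fosl2, had 0.151 and 0.165 CPM in NSD and 0.0885 and 0.175 CPM in SD, also with overlap, while Fosl2, of the Fos family, was called higher with 147 and 179 CPM in NSD and 230 and 233 CPM in SD (log2 0.51, adjusted p = 0.04, edgeR). Gm9884, 949 bases head to head with the adhesion receptor gene Adgrb3, had 0.838 and 0.477 CPM in NSD and 0.321 and 0.233 CPM in SD (log2 -1.25, adjusted p = 0.175, edgeR). Adgrb3 had 180 and 190 CPM in NSD and 143 and 156 CPM in SD (log2 -0.31, adjusted p = 0.0713, and called lower with the block at 0.0044). Gm37074, 31384 bases head to head with Atf3, a stress-response transcription factor gene, had 0.374 and 0.229 CPM in NSD and 0.111 and 0.0582 CPM in SD (log2 -1.83, adjusted p = 0.124, and 0.0417 with the block). Atf3 had 0.489 and 0.312 CPM in NSD and 0.968 and 0.349 CPM in SD (log2 0.71, adjusted p = 0.547, edgeR), with overlap.

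Summed over the 581 loci, the counts made up a small share of the libraries. The NSD libraries held 117745 and 96114 counts of the loci, and the SD libraries held 118320 and 108391. This was 0.0723% (95% Wilson interval 0.0718 to 0.0727%) and 0.0626% (0.0622 to 0.0630%) of NSD replicates 1 and 2, and 0.0650% (0.0647 to 0.0654%) and 0.0553% (0.0550 to 0.0557%) of SD replicates 1 and 2, where the intervals cover counting error only. Within each pair of the same batch number the share was lower in SD (log2 ratio -0.15 and -0.18). Across the pairs the groups overlapped (exact permutation test, two-sided, p = 0.667, with 0.333 the smallest p that 2 against 2 libraries can give), and the ratio of SD to NSD was 0.892. Without the 10 loci of highest count the ratio was 0.687 and the groups did not overlap (exact permutation p = 0.333). The 156 loci over 50 kb from a coding gene fell from 0.0162% and 0.0112% to 0.00581% and 0.00370%, a ratio of 0.347 (exact permutation p = 0.333), and the 425 nearer loci had a ratio of 1.03 (exact permutation p = 0.667).

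The 226 loci that were not tested had 5 counts or fewer in at least 1 library, with a median of 22 counts over the 4 libraries together and a highest mean level of 0.62 CPM. Among all 581 loci, 123 had no count in at least 1 library, and 26, 25, 38 and 83 loci were at 0 in NSD 1, NSD 2, SD 1 and SD 2. A count of 0 allows up to 0.0153 to 0.0195 CPM at these depths, so loss of such loci was not detectable below that level. The untested loci summed to 2899 and 2141 counts in NSD and 1647 and 973 in SD. Both SD values were under each NSD value in 87 of them (38.5%) and over each in 17 (7.52%), beside 34.9% and 8.78% of all 5855 rows that missed the filter. A low level in SD can itself keep a row from passing, so these values are a description.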

How the data were processed

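RNA bound to HA-tagged ribosomes was sequenced as 150-bp paired ends from a stranded, ribosomal-RNA-depleted total RNA kit. The authors aligned the reads with STAR to mm39 (GRCm39) and deposited expected counts per row of Ensembl release 110 from the expectation-maximization model of Partek, without normalization. Whether counting used the strand is not given in the sources used here. Fractional values occur in 55.6% of all rows and in 46 of the 581 loci. The table held 0 per-sample columns that were not used.

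Spans were compared within the table, with gaps measured between closest ends on either strand. Counts were rounded, the 22338 rows over 5 counts in each library were fitted in edgeR 4.0.16 (R 4.3.3) with TMM factors (0.965 to 1.02) and condition as the only term, and p values were adjusted by Benjamini-Hochberg over those rows. CPM values use the TMM-scaled totals, and SE are of the log2 fold change. Nothing says that pools came from separate cohorts beyond the batch number, so p values measure the spread between these pools. The labels give same-numbered NSD and SD libraries 1 batch number, so the numbers pair them; the deviations of same-numbered libraries correlated at 0.178 over all rows and 0.052 over the loci. Replicates differed by more than counting noise (chi-square per degree of freedom 99.6 for NSD and 53.4 for SD over all rows tested, and 9.21 and 8.65 over the tested loci).

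On simulated counts with 22046 rows tested, edgeR called 52 of 106 rows changed by 1 on the log2 scale and 74 of 84 changed by 2, with 29 false calls. On the same counts edgeR with the block called 57 and 77 of these rows with 42 false calls, and DESeq2 58 and 74 with 38. Alternatives were the batch block, DESeq2 1.42.0, other scalings, filters and fold thresholds, stricter overlap rules and each library left out. The members and all lists were chosen with earlier results of these data known. The loci named are the 8 of highest mean CPM, all higher calls, the 10 lower calls of smallest p, the 2 nearest to a gene in each orientation and those within 50 kb of listed genes, with others named as chosen after their values were seen. Sequences were read from the GRCm39 assembly, whose file carries no repeat masking, so repeat content is not reported.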

Additional observations from a re-analysis of the deposited data

How the results depend on the processing

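Of the 34 lower and 5 higher calls, the replicate block gave 72 and 12, DESeq2 58 and 9, no count filter 4 and 2 of 581 loci, filterByExpr 0 and 0, and a mean count filter 0 and 0. Scaling from protein-coding rows gave 3 higher calls, a fold threshold of 1.5 gave 2 higher calls, and loci that overlap no other row gave 17 lower calls. Leaving out 1 library gave 2 (without NSD replicate 1) to 72 (without SD replicate 1) lower calls, 2 (without NSD replicate 2) to 8 (without SD replicate 2) higher calls and medians of -0.52 to -0.19, where the lone library of a group is assumed to vary like the other group. The median of -0.38 moved by more than its spread between replicate numbers (0.013) to -0.36 with DESeq2, -0.36 with median-ratio factors, -0.40 with protein-coding scaling, -0.50 with filterByExpr, -0.48 with the mean filter, -0.55 with no filter, -0.64 for loci over 5 kb from a coding gene and -0.20 for loci that overlap no other row. The other rules on overlap and threshold kept the counts within 1.5 times. The log2 ratio of the summed share, -0.16, was -0.54 without the 10 loci of highest count, -0.15 and -0.18 within replicates 1 and 2 (replicate block), and -0.29 to -0.05 with a library left out. Among the 31 loci named by rule, signs turned for 5 uncalled ones with a library left out, within ranges of -0.06 to 0.18 (9330121K16Rik), -0.65 to 0.13 (9330161L09Rik, also 0.11), -0.38 to 0.67 (9430081H08Rik, also -0.05), -0.81 to 0.14 (Gm10463) and -0.003 to 0.12 (Gm44509). The causes were not tested. For the rarest loci, depth limits what could be detected.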

Other observations

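Further lower calls in lncRNA rows are described here, chosen after their values were seen. Gm37899 on chromosome 12, 68538 bases head to head with the imprinted gene Rtl1 and overlapping the lncRNA row B830012L14Rik, had the highest mean level of the 34 lower calls, 8.77 CPM. It had 19.1 and 10.4 CPM in NSD and 4.34 and 1.29 CPM in SD (log2 -2.39, adjusted p = 0.0447, edgeR), was not called by DESeq2 (adjusted p = 0.0673) and had fold changes of -3.51 (without SD replicate 1) to -1.75 (without SD replicate 2) with a library left out. The row B830012L14Rik fell from 21.3 and 10.8 CPM to 4.97 and 1.66 CPM (log2 -2.28, adjusted p = 0.0453). Gm48737, within Mir100hg, had 0.893 and 0.471 CPM in NSD and 0.127 and 0.0793 CPM in SD (log2 -2.72, adjusted p = 0.0400, edgeR), where Mir100hg had a fold change of -1.09 (adjusted p = 0.0363). In Lncpint, a lncRNA of the p53 response, 5330406M23Rik had 4.96 and 2.79 CPM in NSD and 1.34 and 0.677 CPM in SD (log2 -1.95, adjusted p = 0.0400, edgeR), and Lncpint had a fold change of -1.36 (adjusted p = 0.0369).

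Some of the lower calls stand outside coding genes only in the annotation release of the table. Gm49674, A630036G19Rik and Gm49677 on chromosome 16 all overlap Robo2 as GENCODE vM39 draws it, and had fold changes of -2.15, -2.44 and -2.46. Gm48602 overlaps Ptprg, a receptor phosphatase gene, as drawn there, and had 1.48 and 1.57 CPM in NSD and 0.443 and 0.185 CPM in SD (log2 -2.28, adjusted p = 0.0397, edgeR). Gm9930 overlaps Samd5 as drawn there and had a fold change of -2.03. These are the 5 of the 34 lower calls for which this holds.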
